A study of Arabidopsis thaliana with 21 samples.

Results

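The 36 nuclear genes described here encode enzymes, regulators and a transporter of the Calvin cycle (22 genes) and of photorespiration (14 genes) of *Arabidopsis thaliana*. They were picked by locus identifier from what each gene encodes, and all 36 were found among the 25263 genes of the table and passed the filter on low values, which left 22222 genes tested. Transcripts were measured by RNA sequencing of 10-day-old seedlings grown on agar without treatment at 20 °C under 16 h of light and 8 h of dark. Wild-type Col-0 was compared with 6 lines made in Col-0, each carrying an introduced full-length cDNA of an inositol phosphorylceramide synthase, an enzyme of sphingolipid synthesis, in the vector pK7WG2, in which a cauliflower mosaic virus promoter drives the insert. At1+ and At1++ over-express AtIPCS1, At2+ and At2++ AtIPCS2, and At3+ and At3++ AtIPCS3, with ++ standing for the higher level by label. Each of these groups was 1 transformed line with 3 libraries, and the study describes the 3 libraries of a group in one place as replicates of the experiment and in others as technical triplicates of 1 line, so that the SDs and p-values below measure only the spread between these libraries, which may be technical. Replicates 1 and 2 of At3+ held identical values and were counted as 1, so n = 2 for At3+ and n = 3 elsewhere, and 20 libraries were used.

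In the Calvin cycle, rubisco joins carbon dioxide to ribulose bisphosphate in the chloroplast stroma, the product is reduced to triose phosphate with ATP and NADPH from the light reactions, and most of the triose phosphate is turned back into the acceptor. Rubisco also takes oxygen in place of carbon dioxide, which gives phosphoglycolate, and photorespiration returns its carbon to the cycle through the chloroplast, the peroxisome and the mitochondrion. Both pathways are encoded almost wholly in the nucleus, and in green tissue their transcripts are among the most abundant of the cell and follow light, sugar and the time of day.

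The libraries held 12733113 to 17210244 reads on genes. The normalized count, the unit used below, is the number of reads on a gene divided by the size factor of its library. AtIPCS1 stood at 17726 ± 1095 normalized counts in At1+ and 45370 ± 4194 in At1++ (SD, n = 3), against 172 ± 6.51 in Col-0. The order of the other isoforms went against the labels: AtIPCS2 stood at 22612 ± 600.5 in the libraries labelled At2+ and 12631 ± 475 in those labelled At2++, and AtIPCS3 at 11933 ± 1310 in those labelled At3+ (n = 2) and 5802 ± 326 in those labelled At3++. The names At2+, At2++, At3+ and At3++ are therefore used below as labels only, and no direction is drawn from the level they state. Whether the + and ++ names of these lines were exchanged, in the table or elsewhere, cannot be told from the files, so a value given for At2+ may belong to the line meant by At2++, and likewise for At3+ and At3++. Replicate 3 of At1++ also held 318 normalized counts of AtIPCS3, against 44.7 and 47.6 in the other At1++ libraries. The counts of members that rose and fell in At1++ against Col-0 and against At1+ are given with and without this library. Other counts that rest on At1++ include it.

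Most members rose against Col-0, by the test defined below, in 4 of the 6 lines (At1++, both lines of AtIPCS2, and At3++), and the size of the difference depended on the line (see the plot of log2 fold changes by gene and line). On the log2(normalized count + 1) scale, on which a difference of 1 is a factor of 2, the median difference of the 36 members from Col-0 was 0.04 and 0.59 for At1+ and At1++, 0.90 and 1.04 for At2+ and At2++, and 0.25 and 0.65 for At3+ and At3++. The median of all genes tested lay between -0.02 and 0.01 in every line. A gene is said to have risen or fallen where limma's Benjamini-Hochberg adjusted p, over all genes tested, was under 0.05. The 6 lines were all compared with the same Col-0 libraries. In RNA of whole seedlings, a change in the share of green cells and a change in RNA per cell cannot be told apart.

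In At1+, 7 members rose and 6 fell, where 14.4% of all genes tested rose and 13.2% fell. With scaling over nuclear genes these were 3 and 11, where 2023 of all genes rose and 4394 fell (3205 and 2925 as deposited). They were 2 to 6 and 3 to 6 with 1 library left out at a time. Leaving out any Col-0 library or replicate 1 or 3 of At1+ moved the first count by over 1.5 times, and replicate 2 of Col-0 the second. In At1++, 30 rose and 2 fell, against 19.8% and 19% of all genes, and without replicate 3 of At1++ 28 rose and 2 fell. In At2+, 32 rose and 0 fell, against 22.6% and 21.5% (0 members were lower also at an unadjusted p under 0.05, by edgeR and by DESeq2). The share of members that rose was 19.4% in At1+, 83.3% in At1++ and 88.9% in At2+.

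In At2++, 33 members rose and 1 fell, against 25.8% and 26.2% of all genes. In At3+, 14 rose and 0 fell, against 4.94% and 4.37% (again 0 lower at an unadjusted limma p under 0.05, by edgeR and by DESeq2). In At3++, 30 rose and 1 fell, against 20.4% and 18.1%. Without replicate 1 of At3+ the number that rose there was 8, and without replicate 3 it was 9.

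Rises of at least 2-fold were found in At1++, At2+, At2++ and At3++. By this stricter rule 0 and 3 members rose in the lines At1+ and At1++, 16 and 19 in At2+ and At2++, and 0 and 6 in At3+ and At3++, where the shares of all genes that did so were 1.78%, 4.06%, 4.76%, 5.9%, 0.594% and 4.04%. No member fell by this much in any line, and the counts of 0 in At1+ and At3+ were 0 also by edgeR and DESeq2. Library ranges are also given below for single genes. In At1+, At1++, At2+, At2++, At3+ and At3++, all libraries lay above Col-0 for 21.9%, 25.4%, 26.1%, 28.5%, 20.6% and 26.4% of all genes. They lay below it for 19.8%, 25.1%, 25.9%, 28.3%, 19.9% and 25.5%. Of the members, 11, 30, 33, 33, 30 and 31 lay above and 9, 2, 0, 1, 3 and 1 below. Such separation of 1 gene was thus common in every line.

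**Figure D1:**
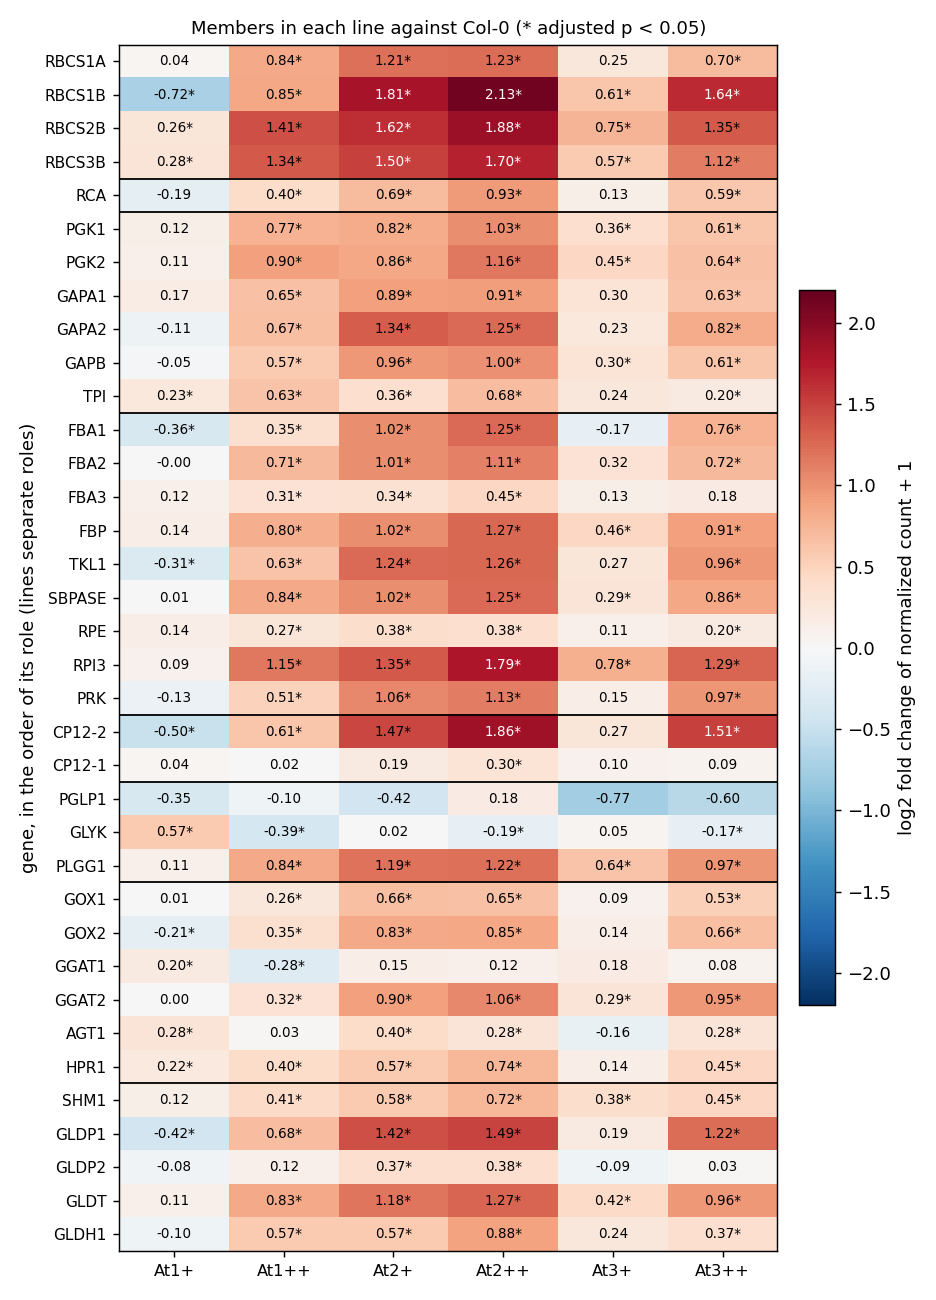
Log2 fold change of each of the 36 members (rows, in the order of their roles) in each line against Col-0 (columns), on the log2(normalized count + 1) scale, with an asterisk where limma's adjusted p was under 0.05. Red cells, higher than Col-0, fill At1++, At2+, At2++ and At3++, whereas At1+ holds 7 members that rose and 6 that fell.

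The small subunit of rubisco, made from 4 nuclear genes in *Arabidopsis*, held the largest difference from Col-0 of any member. RBCS1A (AT1G67090, chromosome 1, 25048158 to 25049667, minus strand) stood alone, and RBCS3B (AT5G38410), RBCS2B (AT5G38420) and RBCS1B (AT5G38430) lay in a row on the minus strand of chromosome 5 within 8333 bases, from 15376988 to 15385320. Coordinates are those of the RefSeq annotation of TAIR10.1. Per kilobase of annotated exon, RBCS1A was the most abundant member in Col-0, at 102473 ± 4505 normalized counts (SD, n = 3), followed by RBCS2B at 23717 ± 800.5, RBCS3B at 16834 ± 564 and rubisco activase at 15764 ± 585.

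RBCS1A stood at 134307, 132027 and 123472 normalized counts in Col-0, at 129683, 127421 and 143921 in At1+ and at 221824, 215412 and 263758 in At1++. It stood at 323244, 280920 and 301245 in At2+ and 282407, 347180 and 286851 in At2++, and at 157079 and 152728 in At3+ and 199822, 212577 and 220972 in At3++. Of the At1+ libraries, 2 lay within the range of Col-0 and replicate 3 above it, and every library of the other 5 lines lay above all of Col-0, with replicate 2 of At2++ the highest. RBCS1A rose in At1++, At2+, At2++ and At3++, by 0.84, 1.21, 1.23 and 0.70 (standard error 0.15 each, limma adjusted p 0.000534 or smaller). The difference was 0.25 in At3+ (limma adjusted p = 0.417) and 0.04 in At1+ (limma adjusted p = 0.876). In At1+ it turned to -0.06 with scaling over nuclear genes and to -0.01 without replicate 3 of At1+.

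RBCS1B gave the largest rise and the largest fall that passed the test. Its normalized counts were 8025, 8195 and 7899 in Col-0, 4946, 4703 and 5015 in At1+ and 14043, 13897 and 15709.8 in At1++. They were 28475, 27308 and 28879 in At2+ and 32677, 40666 and 32865 in At2++, and 12375 and 12089.9 in At3+ and 24592, 24940.1 and 25517 in At3++. The At1+ libraries were all below Col-0, the libraries of the 5 other lines all above it, and no 2 lines of an isoform overlapped. The log2 fold change was -0.72 in At1+ (standard error 0.08, limma adjusted p = 1.5e-07) and 2.13 in At2++ (standard error 0.08, limma adjusted p = 9.19e-17). It was 0.85, 1.81, 0.61 and 1.64 in the lines At1++, At2+, At3+ and At3++, and it passed the test in each.

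RBCS2B held 22457, 22742 and 21327 normalized counts in Col-0, 27067, 25512 and 27240.1 in At1+ and 56662, 56187 and 64133 in At1++. It held 64928, 69018 and 70631 in At2+, 75949.5, 93726 and 75883 in At2++, 37174 and 37146 in At3+ and 54937, 55802 and 58325 in At3++. All 17 libraries of the lines were above all of Col-0. RBCS2B rose by 1.41 in At1++, 1.62 and 1.88 in the lines At2+ and At2++, and 0.75 and 1.35 in the lines At3+ and At3++ (limma adjusted p 4.31e-05 or smaller).

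RBCS3B, its neighbour, had 24072, 24309 and 22829 normalized counts in Col-0, 28597, 27996 and 29928 in At1+ and 56206, 57542 and 67479 in At1++. It had 67744, 66059 and 68250.2 in At2+, 72169.5, 86538 and 73094 in At2++, 36644 and 33802 in At3+ and 50298, 51492 and 53018 in At3++. Again every library of the lines was above Col-0. The rise was 1.34 in At1++, 1.5 and 1.70 in the lines At2+ and At2++, and 0.57 and 1.12 in the lines At3+ and At3++. In At1+, RBCS2B and RBCS3B rose by 0.26 and 0.28 (limma adjusted p = 0.0464 and 0.0324), and these calls were lost without a filter on low values (adjusted p = 0.0947 and 0.072). They were also lost without replicate 1 or 3 of At1+, or without any 1 of the Col-0 libraries, and that of RBCS2B without replicate 2 of At1+ (0.0529) and with scaling over nuclear genes (0.0596).

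The make-up of the small subunit family differed along with its level. RBCS1A took 70.3 to 71.1% of the reads on the 4 genes in Col-0, 68.1 to 69.8% in At1+, 62.8 to 64.2% in At1++, 63.4 to 66.7% in At2+, 61 to 61.2% in At2++, and 64.6 to 64.8% and 60.6 to 61.8% in the lines At3+ and At3++. No library of a line reached the range of Col-0. RBCS1B took 4.25 to 4.5% in Col-0, 2.43 to 2.6% in At1+ and 7.13 to 7.46% in At3++. Of all stretches of the transcripts of RBCS1B and RBCS3B as long as a read (150 bases), 4.81% and 7.92% also occurred in another transcript, each time mainly that of the other gene, so that a small part of their reads could not be assigned to one of them. No such stretch was found for RBCS1A and RBCS2B.

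The promoters of 4 of the 9 members whose window held a G-box or an I-box are shown, to give the place of these motifs, and they were chosen after the values were seen: RBCS2B and FBP rose in At1++ and in both lines of AtIPCS2 and of AtIPCS3, and CP12-2 and GLDP1 fell in At1+ and rose in At1++, both lines of AtIPCS2 and At3++. Each is the 250 bases before the annotated gene start in RefSeq TAIR10.1, 5′ to 3′ on the strand of the gene, with the G-box (CACGTG) and the I-box (GATAAG, or CTTATC on the other strand) in capitals. Both are motifs known from light-regulated plant promoters.
RBCS2B (AT5G38420), chr5:15382072-15382321, minus strand: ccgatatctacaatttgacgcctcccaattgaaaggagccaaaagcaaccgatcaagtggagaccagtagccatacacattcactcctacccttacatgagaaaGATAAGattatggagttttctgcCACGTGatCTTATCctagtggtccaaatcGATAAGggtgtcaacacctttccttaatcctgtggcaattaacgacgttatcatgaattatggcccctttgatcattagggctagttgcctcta
FBP (AT3G54050), chr3:20016587-20016836, plus strand: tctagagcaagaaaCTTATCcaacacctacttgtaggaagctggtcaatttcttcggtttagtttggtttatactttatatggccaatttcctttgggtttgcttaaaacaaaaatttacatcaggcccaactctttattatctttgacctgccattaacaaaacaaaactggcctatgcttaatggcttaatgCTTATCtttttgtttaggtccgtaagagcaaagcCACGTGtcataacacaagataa
CP12-2 (AT3G62410), chr3:23090694-23090943, plus strand: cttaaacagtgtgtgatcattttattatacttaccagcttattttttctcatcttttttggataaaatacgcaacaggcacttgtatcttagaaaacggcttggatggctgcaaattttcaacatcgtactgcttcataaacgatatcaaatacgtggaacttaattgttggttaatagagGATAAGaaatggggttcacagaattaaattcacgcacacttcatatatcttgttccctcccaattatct
GLDP1 (AT4G33010), chr4:15931423-15931672, minus strand: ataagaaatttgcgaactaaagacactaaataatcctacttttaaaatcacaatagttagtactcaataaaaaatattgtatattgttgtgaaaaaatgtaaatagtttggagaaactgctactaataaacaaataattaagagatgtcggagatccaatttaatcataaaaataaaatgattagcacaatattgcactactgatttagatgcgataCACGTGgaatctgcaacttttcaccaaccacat
RBCS2B held a G-box 123 bases before its start with 3 I-boxes 146, 115 and 94 bases before it, and FBP held a G-box 22 bases before its start and I-boxes at 236 and 56 bases. CP12-2 held an I-box at 69 bases and GLDP1 a G-box at 33 bases. The other 27 members, with RBCS1B, RBCS3B, RPI3, PLGG1 and GLDT among them, held neither in this window. Over all members, a G-box was found on either strand in 6 of 36 windows (16.7%), against 6.86% of the windows of 25088 genes, and an I-box in 5 (13.9%), against 12.3%. The evening element (AAAATATCT) was in 0 windows, against 2.37% of all, and the CCA1-binding site (AAAAATCT) in 1 (2.78%), against 6.44%. RBCS1A, RBCS1B and RBCS3B held none of the 4 motifs in this window. None of the 4 motifs contains another. A match is a string of letters, and sequence outside the window was not searched.

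**Figure D2:**
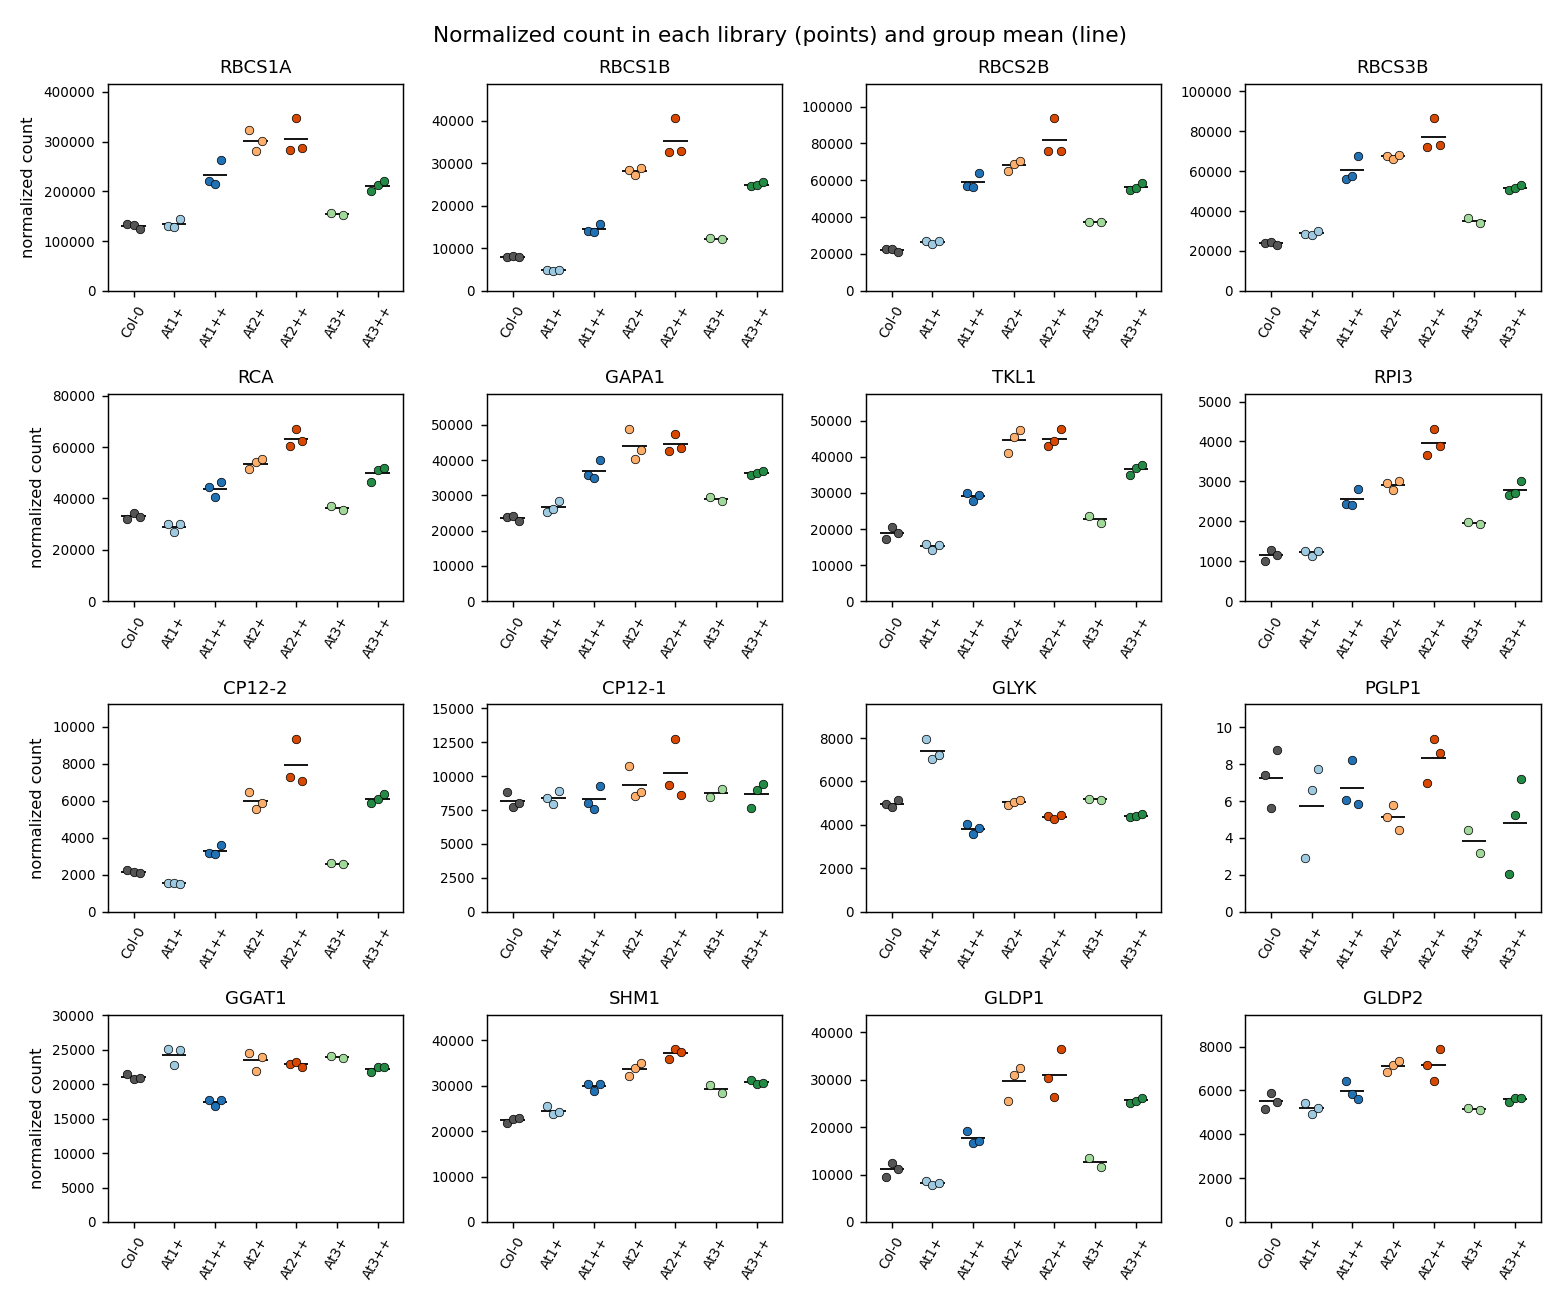
Normalized count (linear axis from 0) of 16 members in each library, by group, with points for libraries and a line for the group mean. RBCS1B, CP12-2 and GLDP1 lie below Col-0 in At1+ and above it in At1++, At2+, At2++ and At3++, GLYK lies highest in At1+, and PGLP1 stays under 10 normalized counts throughout.

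Rubisco activase (RCA, AT2G39730), which frees the active site of rubisco from bound sugar phosphates, moved less than the small subunit. Its normalized counts were 32026, 34450.4 and 32885 in Col-0, 30143, 27057 and 29906 in At1+, 44302, 40619 and 46304 in At1++, 51293, 54036 and 55346 in At2+ and 60298, 67219 and 62188 in At2++. They were 37003 and 35462 in At3+ and 46251, 51115 and 52042 in At3++. The At1+ libraries were below Col-0 and those of the 5 other lines above it. RCA rose by 0.40 in At1++, 0.69 in At2+, 0.93 in At2++ and 0.59 in At3++. In At1+ the difference of -0.19 did not pass (limma adjusted p = 0.129), but it did by edgeR and DESeq2 on the reads (adjusted p = 0.0428 and 0.0213) and with scaling over nuclear genes (-0.29, 0.00088).

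The 6 genes of the reduction phase encode phosphoglycerate kinase (PGK1, AT3G12780, and PGK2, AT1G56190), the subunits of chloroplast glyceraldehyde phosphate dehydrogenase (GAPA1, AT3G26650, GAPA2, AT1G12900, and GAPB, AT1G42970) and triose phosphate isomerase (TPI, AT2G21170). All 6 rose in At1++, At2+, At2++ and At3++, with medians of 0.66, 0.88, 1.01 and 0.62. In At3+, PGK1, PGK2 and GAPB rose, by 0.36, 0.45 and 0.30, and in At1+ TPI alone did, by 0.23.

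GAPA1, the most abundant of the 6 by normalized count, stood at 23986, 24029 and 22746 in Col-0, 25246, 26157 and 28296 in At1+, 35852, 35012 and 40133 in At1++, 48930.2, 40242 and 42731 in At2+ and 42631, 47357 and 43286 in At2++. It stood at 29524 and 28506 in At3+ and 35839, 36269 and 36995 in At3++. Every library of the lines lay above Col-0, those of At1+ by the least. The rise was 0.65 in At1++, 0.89 in At2+, 0.91 in At2++ and 0.63 in At3++ (standard error 0.09 each). GAPA2, its paralog, was at 1.34 in At2+ and 1.25 in At2++, and at -0.11 in At1+ (limma adjusted p = 0.284). TPI differed least among the 6 in At2+ and At3++, at 0.36 and 0.20.

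The 9 genes of the regeneration phase rebuild the acceptor from triose phosphate. They encode fructose bisphosphate aldolase (FBA1, AT2G21330, FBA2, AT4G38970, and FBA3, AT2G01140), fructose bisphosphatase (FBP, AT3G54050), transketolase (TKL1, AT3G60750), sedoheptulose bisphosphatase (SBPASE, AT3G55800), ribulose phosphate epimerase (RPE, AT5G61410), ribose phosphate isomerase (RPI3, AT3G04790) and phosphoribulokinase (PRK, AT1G32060), which phosphorylates ribulose phosphate to the acceptor. All 9 rose in At1++, At2+ and At2++, and 8 in At3++, where FBA3 was at 0.18 (limma adjusted p = 0.127). At least 2-fold rises were seen for 7 of the 9 in At2+ and in At2++.

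TKL1 was the most abundant of these 9 by normalized count. It stood at 17120.2, 20609.7 and 18933 in Col-0, 15925, 14196 and 15462 in At1+, 29899, 27878 and 29483 in At1++, 41189, 45539 and 47356 in At2+ and 43002, 44386 and 47857 in At2++. It stood at 23663 and 21773 in At3+ and 35115, 36936 and 37666 in At3++. The At1+ libraries were below Col-0 and all others above it. TKL1 fell by 0.31 in At1+ (limma adjusted p = 0.00959, and 0.07 without replicate 2 of Col-0 or 0.0517 without replicate 2 of At1+) and rose by 0.63 in At1++, 1.24 in At2+, 1.26 in At2++ and 0.96 in At3++.

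RPI3 differed most among the regeneration genes in 5 lines. Its normalized counts were 1011, 1281 and 1155 in Col-0, 1269, 1126 and 1265 in At1+, 2440.1, 2413 and 2809 in At1++, 2968, 2793 and 3005 in At2+ and 3655, 4324 and 3885 in At2++. They were 1993 and 1931 in At3+ and 2668, 2707 and 3012 in At3++. The At1+ libraries overlapped with Col-0 and the libraries of the 5 other lines were above it. RPI3 rose by 1.15 in At1++, 1.35 and 1.79 in the lines At2+ and At2++, and 0.78 and 1.29 in the lines At3+ and At3++ (limma adjusted p 2.11e-06 or smaller). In At1+ it was at 0.09, and at -0.0048 with scaling over nuclear genes.

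The aldolases did not move alike. FBA1 fell by 0.36 in At1+ and rose by 1.25 in At2++, whereas FBA3 rose by 0.45 in At2++. FBA2, the most abundant of the 3 by normalized count and per kilobase, rose by 1.01 in At2+ and 1.11 in At2++. RPE rose by no more than 0.38 in any line. The bisphosphatases, which draw the cycle forward, rose in 5 lines each, FBP by 0.46 in At3+ up to 1.27 in At2++ and SBPASE by 0.29 in At3+ up to 1.25 in At2++. PRK rose by 0.51 in At1++, 1.06 in At2+, 1.13 in At2++ and 0.97 in At3++.

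CP12 is a small protein that binds the A type glyceraldehyde phosphate dehydrogenase and phosphoribulokinase into an inactive complex in the dark. The members with this role parted. CP12-2 (AT3G62410) had 2239.9, 2124 and 2099 normalized counts in Col-0, 1531, 1545 and 1503 in At1+, 3164, 3106 and 3625 in At1++, 6496, 5559 and 5854 in At2+ and 7305, 9345 and 7069.7 in At2++. It had 2632 and 2552 in At3+ and 5876, 6107 and 6369 in At3++. The At1+ libraries lay below Col-0 and those of every other line above it. CP12-2 fell by 0.50 in At1+ (limma adjusted p = 6.18e-05) and rose by 0.61 in At1++, 1.47 in At2+, 1.86 in At2++ and 1.51 in At3++ (standard error 0.08 each).

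CP12-1 (AT2G47400) held 8828, 7713 and 7994 normalized counts in Col-0, 8388, 7936 and 8934 in At1+, 8026, 7549 and 9291 in At1++, 10745, 8529 and 8859 in At2+ and 9337, 12753 and 8607 in At2++. It held 8495 and 9028 in At3+ and 7632, 9007 and 9451 in At3++. The range of every line overlapped with that of Col-0, and replicate 2 of At2++ stood highest. The difference passed the test in At2++ alone, at 0.30 (limma adjusted p = 0.0302), and without that library it was 0.13 (adjusted p = 0.29). The call was also lost without replicate 2 or 3 of Col-0, with only the libraries compared and with scaling over nuclear genes. The other differences lay between 0.02 and 0.19, and those in At1+, At1++, At2+ and At3++ turned below 0 with scaling over nuclear genes.

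The first steps of photorespiration lie in the chloroplast. Phosphoglycolate phosphatase (PGLP1, AT5G36700), which releases glycolate, was listed at 2.04 to 9.38 normalized counts over all libraries, and no difference passed. Every read-length stretch of its transcripts also occurred in AT5G36790, a near-identical gene, so its level was not measurable in this table. PLGG1 (AT1G32080), which carries glycolate out and glycerate in across the chloroplast envelope, rose by 0.84 in At1++, 1.19 and 1.22 in the lines At2+ and At2++, and 0.64 and 0.97 in the lines At3+ and At3++.

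Glycerate kinase (GLYK, AT1G80380), which closes the pathway by returning phosphoglycerate to the Calvin cycle, went the other way. Its normalized counts were 4971, 4829 and 5144 in Col-0, 7963, 7048 and 7234 in At1+, 4049, 3569 and 3832 in At1++, 4935, 5042 and 5140.4 in At2+ and 4395, 4292 and 4435 in At2++. They were 5182 and 5161 in At3+ and 4355, 4387 and 4519 in At3++. The At1+ libraries were all above Col-0, those of At1++, At2++ and At3++ all below it, those of At3+ just above it, and At2+ overlapped with Col-0. GLYK rose by 0.57 in At1+ (standard error 0.06, limma adjusted p = 7.37e-08) and fell by 0.39 in At1++ (limma adjusted p = 1.32e-05), 0.19 in At2++ (0.0117) and 0.17 in At3++ (0.0267).

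The fall of GLYK in At2++ was lost without replicate 3 of Col-0 (adjusted p = 0.0567). That in At3++ was lost without replicate 1 or 3 of Col-0 or replicate 1 or 2 of At3++ (0.0582 to 0.107). In At2+ the difference of 0.02 turned to -0.19 with scaling over nuclear genes (adjusted p = 0.00726), and to -0.01 without replicate 2 of Col-0.

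In the peroxisome, glycolate oxidase makes glyoxylate, aminotransferases turn it into glycine, and the return path runs through serine to glycerate. GOX1 (AT3G14420) and GOX2 (AT3G14415), which lie 377 bases apart on the plus strand of chromosome 3, rose by 0.66 and 0.83 in At2+ and by 0.65 and 0.85 in At2++. In At1+, GOX2 fell by 0.21 and GOX1 was at 0.01 (limma adjusted p = 0.923). HPR1 (AT1G68010), hydroxypyruvate reductase, rose in 5 lines, by 0.22 in At1+ up to 0.74 in At2++. AGT1 (AT2G13360), serine glyoxylate aminotransferase, rose in At1+, At2+, At2++ and At3++, by 0.28, 0.40, 0.28 and 0.28, and was at 0.03 in At1++.

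The glutamate glyoxylate aminotransferases also parted. GGAT1 (AT1G23310) stood at 21467, 20798 and 20942 normalized counts in Col-0, 25060.4, 22790.1 and 24908 in At1+, 17729.6, 16775 and 17667 in At1++, 24556, 21931 and 23896 in At2+ and 22971, 23224 and 22506 in At2++. It stood at 24039 and 23752 in At3+ and 21774, 22538 and 22454 in At3++. Only the At1++ libraries were below Col-0, and those of every other line were above it. GGAT1 fell by 0.28 in At1++ (limma adjusted p = 0.0036) and rose by 0.20 in At1+ (limma adjusted p = 0.0404), a call lost without a filter, with only the libraries compared, with scaling over nuclear genes and without any 1 of the Col-0 libraries or replicate 1 or 3 of At1+ (adjusted p 0.0623 to 0.136). The differences of 0.15, 0.12 and 0.08 in At2+, At2++ and At3++ did not pass and turned below 0 with scaling over nuclear genes.

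GGAT2 (AT1G70580), at 347 to 359.7 normalized counts in Col-0, rose by 0.32 in At1++, 0.90 and 1.06 in the lines At2+ and At2++, and 0.29 and 0.95 in the lines At3+ and At3++. Per kilobase of exon its level in Col-0 was 145 ± 2.75 normalized counts, and that of GGAT1 9555 ± 159 (SD, n = 3).

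In the mitochondrion, glycine decarboxylase, a complex of P, T, H and L proteins, and serine hydroxymethyltransferase turn 2 glycines into serine with the release of carbon dioxide and ammonia. SHM1 (AT4G37930), the hydroxymethyltransferase, stood at 21800.3, 22689 and 22911 normalized counts in Col-0, 25638, 23740.5 and 24119.6 in At1+, 30408, 28939 and 30458 in At1++, 32229, 33812 and 35052 in At2+ and 35965, 38018 and 37358 in At2++. It stood at 30106 and 28468 in At3+ and 31354, 30356 and 30635 in At3++. Every library of the lines was above Col-0. SHM1 rose by 0.41 in At1++, 0.58 and 0.72 in the lines At2+ and At2++, and 0.38 and 0.45 in the lines At3+ and At3++, and the call in At3+ was lost without its replicate 1 (0.34, adjusted p = 0.092).

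GLDP1 (AT4G33010), a P protein and the subunit that decarboxylates glycine, held the largest rise and the largest fall of the mitochondrial members, though not the largest rise in every line. Its normalized counts were 9450.1, 12537 and 11219 in Col-0, 8667, 7828 and 8152 in At1+, 19121, 16726 and 17026 in At1++, 25466, 30899.8 and 32527 in At2+ and 30335, 26434 and 36409 in At2++. They were 13558 and 11625 in At3+ and 25177, 25530.4 and 26229 in At3++. At1+ lay below Col-0, At3+ overlapped with it, and the other lines lay above it. GLDP1 fell by 0.42 in At1+ (limma adjusted p = 0.00615, and 0.0542 without replicate 2 of Col-0) and rose by 0.68 in At1++, 1.42 in At2+, 1.49 in At2++ and 1.22 in At3++ (standard error 0.11 each).

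GLDP2 (AT2G26080), the other P protein, rose in At2+ and At2++ only, by 0.37 and 0.38. GLDT (AT1G11860), the T protein, rose by 0.83 in At1++, 1.18 and 1.27 in the lines At2+ and At2++, and 0.42 and 0.96 in the lines At3+ and At3++. GLDH1 (AT2G35370), an H protein, rose by 0.57, 0.57, 0.88 and 0.37 in the same lines but At3+.

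Summed over members, the reads tell how much of each library these genes took up. The 36 members held 3.65 to 3.74% of the reads on genes in Col-0, 3.5 to 3.64% in At1+, 5.39 to 5.78% in At1++, 6.44 to 6.59% in At2+, 6.74 to 7.23% in At2++, and 4.37 to 4.41% and 5.43 to 5.6% in the lines At3+ and At3++. At1+ lay below Col-0 and the other lines above it, with no overlap. The small subunit genes made up 1.3 to 1.4% of reads in Col-0 and 3 to 3.43% in At2++. The 14 photorespiration genes made up 0.947 to 0.967% in Col-0, and of the lines At1+ alone, at 0.944 to 0.979%, overlapped with that range.

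**Figure D3:**
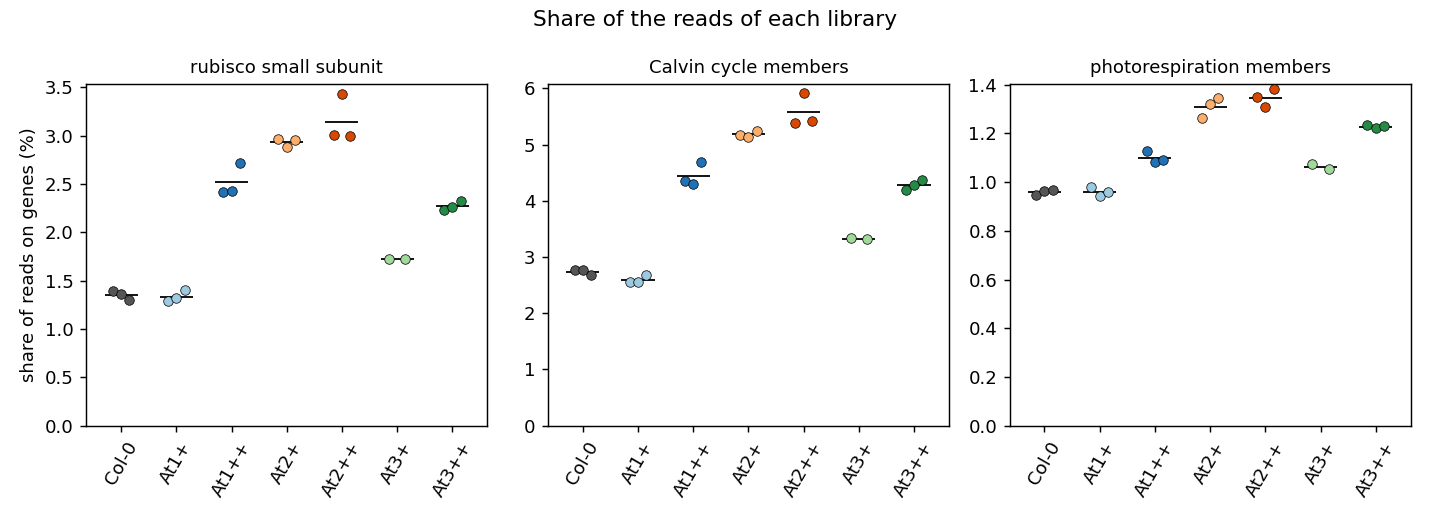
Share of each library's reads on genes (percent, axis from 0) held by the 4 small subunit genes, the 22 Calvin cycle members and the 14 photorespiration members, by group, with points for libraries and lines for group means. In each panel At2+ and At2++ lie highest and Col-0 and At1+ lowest.

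The lines of an isoform were also compared with each other. Each group was 1 transformed line, so the level of over-expression and the line cannot be told apart. In At1++ against At1+, 29 members were higher and 3 lower (24.7% and 24.2% of all genes), with a median of 0.65, and without replicate 3 of At1++ 28 were higher and 3 lower. RBCS1B differed most, at 1.57 (standard error 0.08), and GLYK, GGAT1 and AGT1 were lower in At1++, by 0.96, 0.48 and 0.25. In the AtIPCS1 pair, the transcript of the transgene follows the label.

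In At2++ against At2+, 8 members were higher and 1 lower (9.93% and 10.5% of all genes), with a median of 0.11. The 8 were RPI3 at 0.43, CP12-2 at 0.40, RBCS1B at 0.32, TPI, GLDH1, PGK2, FBP and SBPASE, and the 1 was GLYK at -0.20. The number higher was 3 with only the libraries compared and 5 without replicate 2 of At2++, and 14 with DESeq2 on the reads. In At3++ against At3+, 23 were higher and 1 lower (13% and 9%), with a median of 0.44, CP12-2 at 1.24, GLDP1 at 1.03 and RBCS1B at 1.03 among the higher and GLYK, at -0.23, the lower. In these 2 pairs the line labelled ++ held the lower level of the transgene transcript.

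Isoforms were compared as the means of their 2 lines, against the spread between libraries and not that between lines. Against the AtIPCS1 lines, 33 members were higher and 1 lower in the AtIPCS2 lines (26% and 25.8% of all genes), with a median of 0.71, RBCS1B at 1.90 (standard error 0.06) and CP12-2 at 1.61 foremost, and GLYK lower at -0.18. Against the AtIPCS3 lines, 32 were higher and 0 lower in the AtIPCS2 lines (18.2% and 17.2%), with a median of 0.46, and 0 were lower by edgeR and DESeq2 on the reads as well. In the AtIPCS1 lines against the AtIPCS3 lines, 2 were higher, TPI at 0.21 and GLYK at 0.15, and 19 lower (10.4% and 13%), with a median of -0.17 and RBCS1B at -1.05 and CP12-2 at -0.83 the farthest. Since At1+ and At1++ differed in most members, the mean of the AtIPCS1 lines stands for neither.

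**Figure D4:**
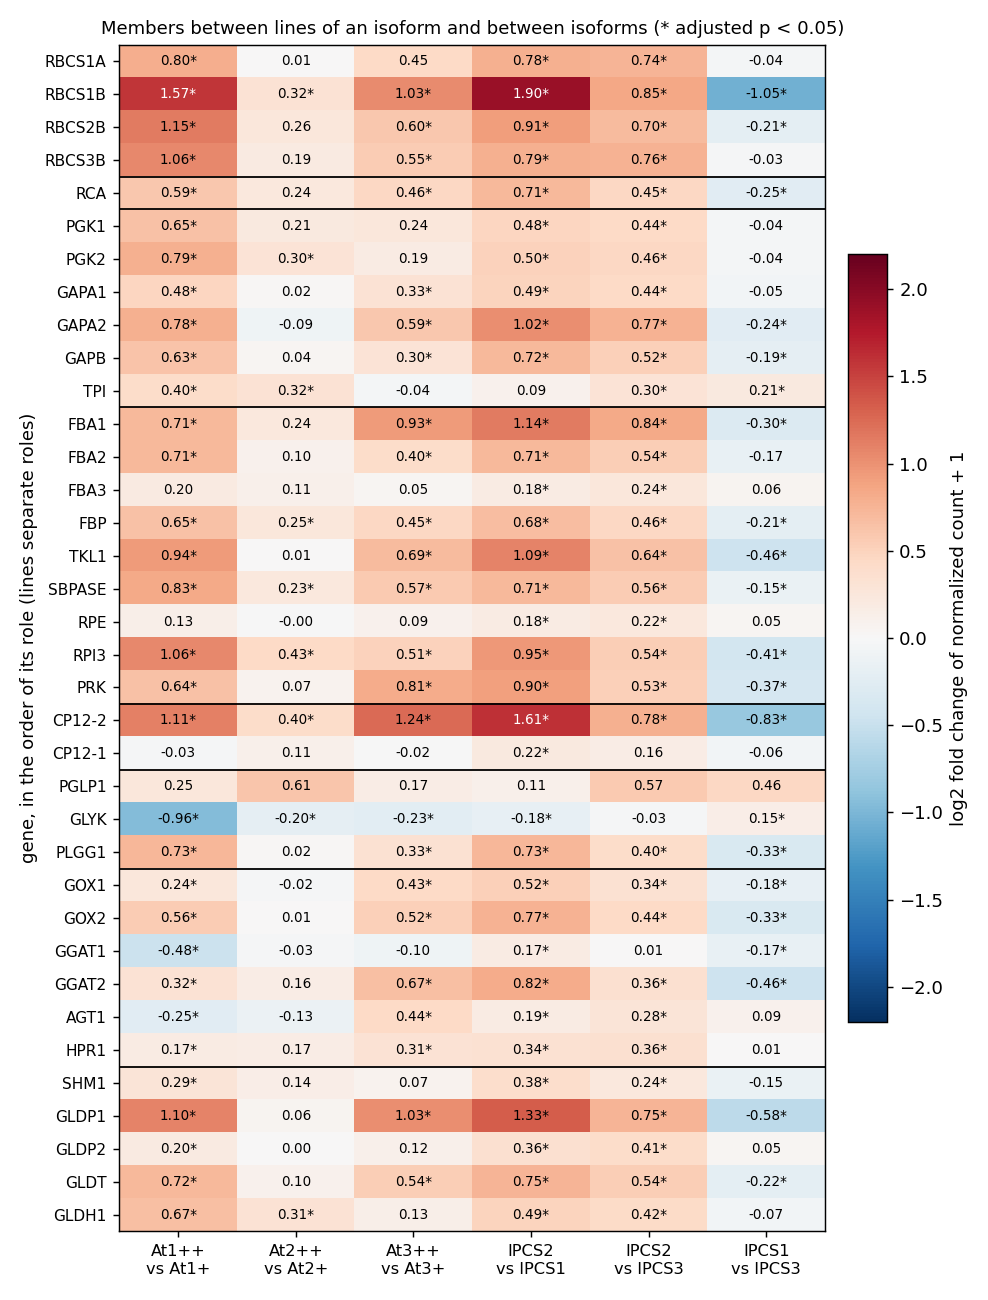
Log2 fold change of each member (rows) between the lines of an isoform (first 3 columns) and between the means of the lines of 2 isoforms (last 3 columns), on the log2(normalized count + 1) scale, with an asterisk where limma's adjusted p was under 0.05. The columns of At1++ against At1+ and of the AtIPCS2 lines against either other isoform are mostly red, with 29, 33 and 32 members higher, and that of At2++ against At2+ holds 8 higher and 1 lower.

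Other genes of the 2 pathways were taken from lists, which were chosen with earlier results of these data known. In every line but At1+ they moved by smaller medians than the members, a difference that was not tested. Against Col-0, 14.4%, 19.8%, 22.6%, 25.8%, 4.94% and 20.4% of all genes tested rose in At1+, At1++, At2+, At2++, At3+ and At3++. In the same order, 13.2%, 19%, 21.5%, 26.2%, 4.37% and 18.1% fell. These shares stand beside the counts of the lists that follow. Of 22 further photorespiration genes, 2, 15, 13, 18, 6 and 13 rose and 3, 1, 1, 1, 1 and 1 fell in At1+, At1++, At2+, At2++, At3+ and At3++ respectively, and their median differences were -0.01, 0.38, 0.54, 0.67, 0.18 and 0.41, with DIT1, the oxoglutarate malate translocator, at 1.07 in At2+ and 1.1 in At2++. Of 16 genes for rubisco assembly and redox control, 2, 12, 13, 13, 6 and 12 rose and 5, 3, 0, 0, 1 and 0 fell in the same order of lines, with medians of -0.11, 0.30, 0.52, 0.75, 0.18 and 0.36. The chaperonin subunits CPN60B2 and CPN60A1, which fold rubisco subunits, rose by 1.67 and 1.14 in At1++ and by 1.60 and 1.17 in At2++.

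Of 10 genes for cytosolic enzymes of the same reactions, 2, 7, 7, 8, 2 and 8 rose and 3, 0, 0, 0, 0 and 0 fell by limma, with medians of 0.02, 0.38, 0.58, 0.85, 0.15 and 0.43, with counts of 0 by edgeR and DESeq2 and at an unadjusted p under 0.05 wherever limma gave 0 for these lists against Col-0, and with FBA5, a cytosolic aldolase, at 1.29 in At2+, 1.47 in At2++ and 1.22 in At3++. RBCL, the large subunit of rubisco and encoded in the chloroplast, rose by 1.84 and 2.12 in At1+ and At1++, 3.48 and 2.95 in At2+ and At2++, and 2.07 in At3++, and was at 0.78 in At3+, where it did not pass. Its Col-0 libraries ran from 387 to 1013 normalized counts with a median of 391, so these differences rest on an uneven reference. Chloroplast-encoded genes as a whole held 0.033 to 0.0687% of the reads in Col-0 and 0.405 to 0.99% in At2+, in libraries made from polyadenylated RNA, which chloroplast transcripts mostly lack.

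Nuclear genes of light harvesting and the photosystems, the list most like the members, are a check of green tissue and summed to 1105600 to 1204070 normalized counts in Col-0. Of its 41 genes, 2, 26, 30, 31, 6 and 22 rose and 8, 6, 5, 3, 7 and 6 fell in At1+, At1++, At2+, At2++, At3+ and At3++, and the medians were -0.01, 0.40, 0.52, 0.68, -0.02 and 0.36. The difference between these medians and those of the members was not tested. LHCB2.1 and LHCB2.2, antenna proteins of photosystem II, fell in all 6 lines, by 1.33 to 1.90 and by 1.06 to 1.44, LHCB2.3 fell by 1.52 in At1+ and 1.46 in At3+, and LHCA6 rose by 1.22 in At1++, 1.62 in At2+, 2.01 in At2++ and 1.54 in At3++. LHCB4.3 rose by 1.06 in At1++ and 1.45 in At2++.

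**Figure D5:**
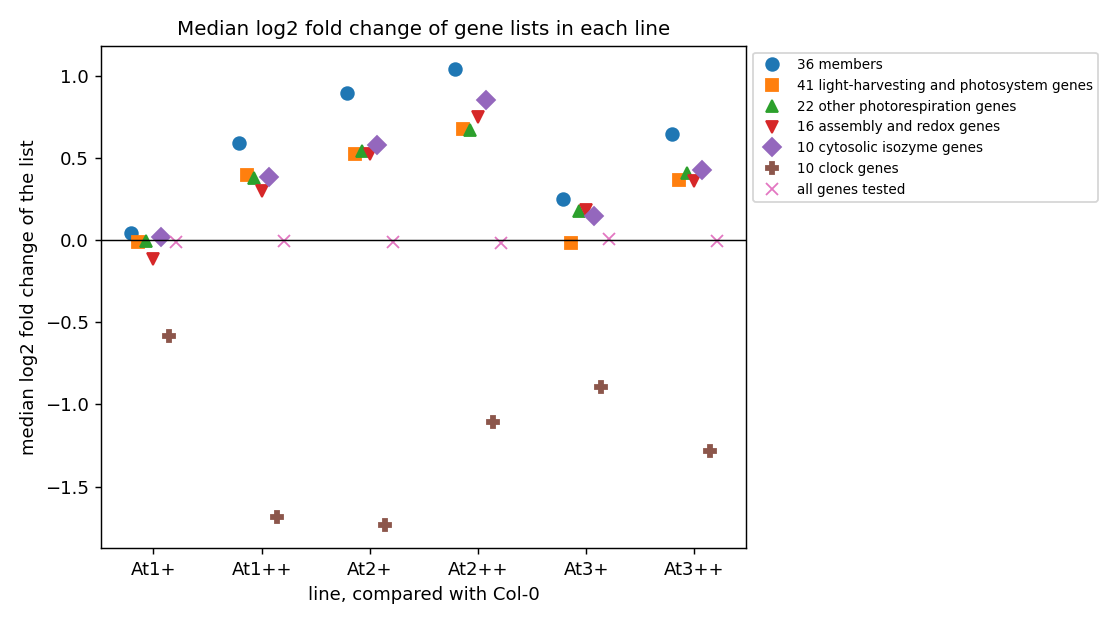
Median log2 fold change of the members, of 5 other gene lists and of all genes tested in each line against Col-0, on the log2(normalized count + 1) scale. The median of the 36 members lies above those of the other lists in At1++, At2+, At2++ and At3++, and the clock genes lie below 0 in every line.

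Markers of other cells and of the time of day also differed from Col-0, to an extent that varied with the list and the line. The 10 seed storage and oil body genes rose in every line, from a sum of 18.4 to 22.3 normalized counts in Col-0, where CRB, SESA2, SESA3 and SESA4 were at 0 in all libraries, to 1802 to 3048 in At1+, 30720.4 to 34965 in At1++, 6114 to 7810.3 in At2+, 2824 to 3092 in At2++, and 574 to 1044 and 13077 to 16330.1 in the lines At3+ and At3++. The 12 root hair and endodermis genes, none of them at 0 in Col-0, summed to 1054 to 1122 in Col-0, 1207 to 1526 in At1+, 1272 to 1501 in At1++, 1603 to 2174 in At2+, 1418 to 1552 in At2++, and 1064 to 1222 and 1350 to 1625 in the lines At3+ and At3++, with 5, 5, 7, 5, 0 and 5 that rose and 0, 1, 1, 1, 0 and 1 that fell. Of 10 clock genes, 3, 10, 10, 8, 5 and 9 fell and LUX rose in At1+. The clock sum was 9616 to 9735 in Col-0, 9102 to 9464 in At1+, 5174 to 5353 in At1++, 4454 to 4762 in At2+, 4346 to 4484 in At2++, and 6717 to 6808 and 5186 to 5376 in the lines At3+ and At3++.

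The seed sum was thus highest in At1++, the root sum in At2+ and the clock sum lowest in At2++. The part that seed, root or clock transcripts, or what they track, have in the members' changes was not tested.

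Scaling bore on the members of At1+. Scaling over nuclear genes divided each library by its summed normalized count over nuclear genes, a total that includes the members. The median of all genes was then -0.10 in both At1 lines. It was -0.21 and -0.23 in At2+ and At2++, and -0.03 and -0.16 in At3+ and At3++. The members that rose and fell were then 3 and 11 in At1+ (7 and 6 as deposited), 30 and 2 in At1++, 30 and 1 in both At2+ and At2++, 15 and 1 in At3+, and 28 and 1 in At3++. Of all genes, 2023 rose and 4394 fell in At1+ under this scaling (3205 and 2925 as deposited). These numbers were 3208 and 5753 in At1++, 3005 and 8725 in At2+, and 3588 and 9286 in At2++. They were 875 and 1079 in At3+, and 2922 and 6981 in At3++. Of all calls over all genes, 31.5%, 35.8%, 25.6%, 27.9%, 44.8% and 29.5% were then rises in these lines, against 52.3%, 51%, 51.2%, 49.6%, 53.1% and 53% as deposited. For the contrasts between lines and isoforms, the share of rises was 50.8%, 47.3%, 32.2%, 33.6%, 24.8% and 41.5%, in the order given above, against 50.6%, 48.6%, 59%, 50.2%, 51.4% and 44.4%.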

How the data were processed

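RNA of whole seedlings was sequenced on a NextSeq instrument as single reads of 150 bases from stranded, polyadenylated libraries. According to the study's methods, Trimmomatic removed low-quality ends, STAR placed the reads on the Araport genome, HTSeq-count gave counts per gene, and DESeq2 normalized these. The table that the authors deposited holds these normalized counts, a signal in reads divided by a size factor per library, for 25263 genes in 21 libraries, and 0 columns were left unmapped. All values (100%) were whole reads times 1 step per library, within 0.001 reads, so reads were recovered for the count models.

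Values were fitted as log2(normalized count + 1) with limma 3.58.1 (variance trend, R 4.3.3) over 22222 genes whose mean normalized count reached 1, in 1 model of 7 groups, with Benjamini-Hochberg adjustment over all genes for each of 12 comparisons. Fold changes on this scale understate those of low genes. The alternatives were edgeR 4.0.16 (20326 genes) and DESeq2 1.42.0 on the recovered reads, no filter, a replicate block and a fit of only the compared libraries. Others were scaling to the summed count over nuclear genes, a pseudocount of 0.1, a 2-fold minimum and leaving out each library. limma, edgeR and DESeq2 were tested on simulated data with known changes.

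Values in every library are given for members past a 2-fold change in at least 3 lines, for members that passed in opposite directions with a log2 change of at least 0.5 in both, and for the most abundant member of each of 8 roles. Genes of other lists are named where they passed with at least a 2-fold change in at least 2 lines, up to 10 genes, and marker lists are given whole. Members and lists were chosen with earlier results of these data known. Promoters and gene positions come from RefSeq TAIR10.1, where 25089 of 25263 identifiers were matched, and motifs were searched on both strands. The build the authors aligned to was not used for coordinates.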

Additional observations from a re-analysis of the deposited data

Results flagged for a closer look

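The members differed between the lines of different isoforms by a contrast of the group means in limma. It sets the difference between these lines against the spread between libraries. The spread between lines of an isoform does not enter its error. With the AtIPCS2 lines set against the AtIPCS1 lines, 33 members were higher and 1 was lower (26% and 25.8% of all genes tested), and with the AtIPCS2 lines set against the AtIPCS3 lines, 32 were higher and 0 lower (18.2% and 17.2%, and 0 members were lower also at an unadjusted limma p under 0.05, by edgeR and by DESeq2). With the AtIPCS1 lines set against the AtIPCS3 lines, 2 were higher and 19 lower (10.4% and 13%), and with 1 library left out these were 0 to 2 and 12 to 19, the lowest of both without replicate 1 of At3+. Each isoform was represented by 2 transformed lines, and isoform and line cannot be told apart beyond these.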

How the results depend on the processing

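The limits are those of few lines, of libraries that may be technical replicates, of n = 2 in At3+, and of PGLP1, which had at most 9.38 normalized counts and shares its sequence with a near-identical gene. The counts of members higher and lower that moved by more than 1.5 times are given here. For At1+, 7 higher became 4 with no filter on low values, 3 with scaling over nuclear genes and 0 at a 2-fold minimum, and 6 lower became 11 with nuclear scaling and 0 at a 2-fold minimum. Nuclear scaling also moved the falls in At1+ over all genes from 2925 to 4394. At a 2-fold minimum, the numbers higher against Col-0 became 3 in At1++, 16 and 19 in the lines At2+ and At2++, and 0 and 6 in the lines At3+ and At3++, and those lower became 0 in each. By the same minimum, 6, 0 and 3 were higher in At1++ against At1+, At2++ against At2+ and At3++ against At3+, with 0 lower in each, 6 were higher and 0 lower in the AtIPCS2 against the AtIPCS1 lines, 0 higher in the AtIPCS2 against the AtIPCS3 lines, and 0 higher and 1 lower in the AtIPCS1 against the AtIPCS3 lines. The share of all genes past this minimum was not computed for these contrasts between lines and isoforms. Their 2-fold counts are therefore not a result about the members. With nuclear scaling, At2+ and At3+ had 1 lower, At3++ against At3+ 2 lower, the AtIPCS2 against the AtIPCS3 lines 2 lower, and At2++ against At2+ 14 higher. DESeq2 also gave 14 there, and only the libraries compared 3 higher and 0 lower.

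With 1 library left out at a time, At1+ had 2 to 6 members higher and 3 to 6 lower, At3+ 8 to 12 higher, At2++ and At3++ 0 to 1 lower, At2++ against At2+ 5 to 9 higher and 0 to 1 lower, At3++ against At3+ 0 to 1 lower, and the AtIPCS1 against the AtIPCS3 lines 0 to 2 higher and 12 to 19 lower. The libraries that decided were, for At1+ higher, each Col-0 library and replicates 1 and 3 of At1+, for At1+ lower replicate 2 of Col-0, for At3+ both of its libraries, for GLYK lower in At2++ replicate 3 of Col-0, and in At3++ replicates 1 and 3 of Col-0 and 1 and 2 of At3++. For At2++ against At2+ they were replicate 2 of At2++ and replicate 3 of At2+, for At3++ against At3+ both At3+ libraries, and for the AtIPCS1 against the AtIPCS3 lines both At3+ libraries and replicate 1 of At1++ (1 higher without it).

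Some differences of single members turned sign. With nuclear scaling these were RBCS1A (-0.0559), RPI3 (-0.00479) and CP12-1 (-0.0531) in At1+, CP12-1 in At1++ (-0.081), At2+ (-0.0194) and At3++ (-0.0664), GLYK in At2+ (-0.195) and GGAT1 in At2+ (-0.0581), At2++ (-0.0985) and At3++ (-0.0725). With 1 library left out, RBCS1A in At1+ ran from -0.0146 (without replicate 3 of At1+) to 0.0733, CP12-1 in At1+ from -0.00108 (the same library) to 0.0989 and in At1++ from -0.0689 (without replicate 3 of At1++, and -0.0249 without replicate 2 of Col-0) to 0.0808, and GLYK in At2+ from -0.00525 (without replicate 2 of Col-0) to 0.0402. The cause of these changes was not tested.

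Replicate numbers did not pair the libraries, since the deviations of same-numbered libraries from their group means correlated with those of Col-0 by -0.102 to 0.139, with 1 of 17 over 0.1. A replicate block moved the members higher in At1+ from 7 to 4 and moved no other count by more than 1.5 times.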
